A study of Mus musculus with 6 samples.

Results

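The 58 clustered protocadherin genes of mouse chromosome 18 are described here across the DNA captured with the long non-coding RNA LncMyoD in myotubes. They were chosen by symbol from a RefSeq table of 49997 genes: 14 Pcdha, 22 Pcdhb and 22 Pcdhg genes, of which 57 are annotated as protein-coding and Pcdhgb8 as a transcribed pseudogene. LncMyoD was captured by ChIRP, in which biotin-labelled DNA probes pull down an RNA together with the chromatin attached to it. The 6 samples were all differentiated myotubes from C57BL/6 primary myoblasts kept in medium with 2% horse serum for 2 days, with no other treatment named. Probes of the odd pool, probes of the even pool and input DNA were sequenced, with 2 replicates of each. The analysed results were 2 peak lists, 1 per replicate, each made by the authors from samples that could not be told apart, so the probe pools were not compared with each other or with input. Peak lists hold no expression values, so neither the myotube label nor the activity of these genes could be checked against RNA. Depth is unknown. Whether the 2 replicates came from separate cultures is not stated in the labels.

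Protocadherins are cell adhesion proteins of the cadherin superfamily. In the Pcdha and Pcdhg clusters each gene has its own promoter and a large variable exon, which is spliced to constant exons that all genes of the cluster share at its far end. Pcdhb genes are single-exon genes with no shared constant exons. Neurons switch on a few of these promoters each, which gives a cell a surface identity, and the choice depends on CTCF, cohesin and distal enhancers. The C-type genes at the ends of the Pcdha and Pcdhg clusters are used more broadly than the rest. The family is studied mainly in the nervous system.

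Because the genes of the Pcdha cluster, and those of the Pcdhg cluster, end at the same place and lie inside one another, a region inside the last gene lies inside all of them. Each cluster was therefore cut into segments that run from one gene start to the next, so that each base counted once. The gene table holds no strand. The start was taken as the lower coordinate, which for nested genes is the end that they do not share. A shared region is the union of overlapping peaks that holds at least 1 peak of each list, with an overlap of 1 bp or more, and it was placed, with its peaks, by its midpoint. Peaks of 1 list alone were placed by their own midpoint. Fold enrichment is the authors' value at the summit of a peak, and for a shared region it is that of its best peak by q in each list, replicate 1 before replicate 2.

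The 3 clusters held 22 shared regions in 695 kb, a density of 31.6 per Mb, against 35.6 per Mb in the rest of chromosome 18, where there were 3090. The ratio was 0.89. The Pcdha cluster (36930285 to 37188897, mm10) held 9 shared regions, or 34.8 per Mb. The Pcdhb cluster (37264998 to 37521419) held 7, or 27.3 per Mb. The Pcdhg cluster (37661775 to 37841873) held 6, or 33.3 per Mb. Relative to the rest of the chromosome these densities were 0.98, 0.77 and 0.94. The same ratio for the peaks of each list alone had an SD between the 2 lists of 0.0056, 0.075 and 0.13. That SD is a spread of single-list ratios and does not measure the error of a ratio of shared regions. No test of the differences from the rest of the chromosome was made, and counts of 6 to 9 regions give coarse densities.

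**Figure D1:**
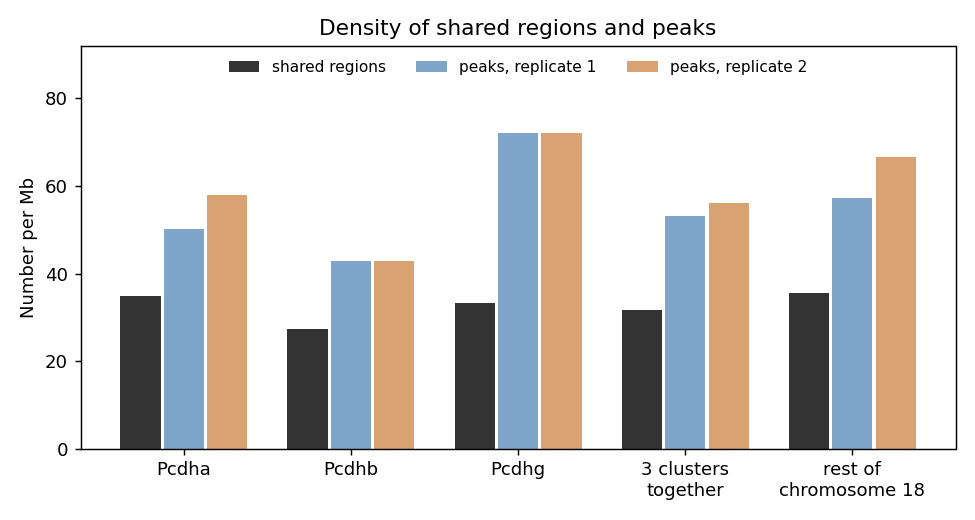
Number per Mb of shared regions and of peaks of each replicate list in the 3 clusters, the clusters together and the rest of chromosome 18. Shared regions lie at 34.8, 27.3 and 33.3 per Mb in the clusters, against 35.6 in the rest; Pcdhg is the cluster whose peaks of single lists are denser than in the rest. There are no error bars, since each bar is 1 count over a length.

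Counted in single lists, the clusters differed from each other more. Pcdhg held 13 peaks in each list, or 72.2 per Mb, against 57.2 and 66.6 per Mb in the rest of the chromosome, ratios of 1.26 and 1.08. Pcdha held 13 and 15 peaks and Pcdhb 11 and 11, with ratios of 0.88 and 0.87 for Pcdha and of 0.75 and 0.64 for Pcdhb. The Pcdhg ratio thus lay above 1 in both single lists and below 1 for shared regions. The density of the rest corresponds to 10.3 and 12.0 peaks over Pcdhg, so the excess is a few peaks, and it was not tested. Peaks of Pcdhg had median folds of 4.77 and 6.49, against 8.45 and 8.34 in the rest. In Pcdhg 6 of 13 peaks of replicate 1 (46.2%) and 7 of 13 of replicate 2 (53.8%) overlapped a peak of the other list, against 67.2% and 57.0% in the rest of the chromosome. In Pcdha these shares were 76.9% and 60.0%, and in Pcdhb 72.7% and 63.6%.

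Clusters were also set beside windows of their own length, tiled without overlap over the rest of the chromosome. Of 334 windows as long as Pcdha, 157 held fewer than 9 shared regions, 40 held 9 and 137 held more. Of 337 windows as long as Pcdhb, 92 held fewer than 7 and 208 held more. Of 480 windows as long as Pcdhg, 200 held fewer than 6 and 216 held more. The cluster counts were thus at the median of their windows for Pcdha (9) and Pcdhg (6), and 1 below it for Pcdhb (8), within the middle quartiles of 6 to 12, 6 to 12 and 4 to 8. Of the 68 windows of 10 kb that cover the 3 clusters, 19 (27.9%) held a shared region, against 29.1% of 10 kb windows in the rest of the chromosome.

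**Figure D2:**
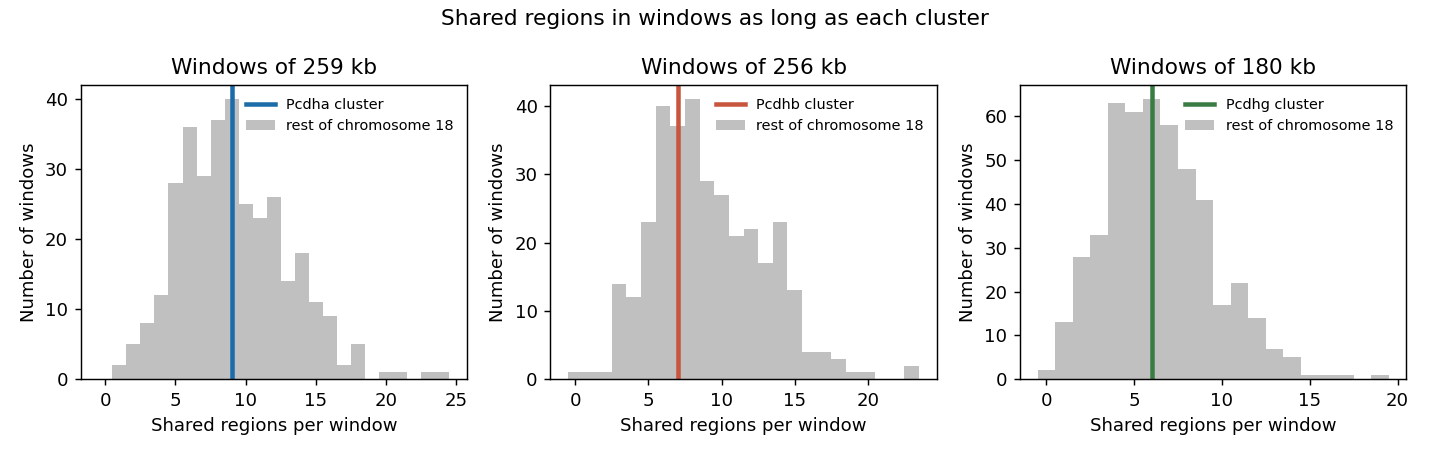
Number of shared regions (x axis) in windows as long as each cluster, with the number of windows on the y axis. Coloured lines mark the Pcdha (9 regions), Pcdhb (7) and Pcdhg (6) clusters, and grey bars the 334, 337 and 480 windows tiled over the rest of chromosome 18. All 3 lines stand near the middle of the bars.

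The share of strong regions differed by cluster, on counts of 6 to 9 regions each. In Pcdha, 7 of 9 shared regions reached a fold of 10 in both lists. In Pcdhb 1 of 7 did, and in Pcdhg 2 of 6. Together that was 45.5% of the regions in the clusters, against 46.4% in the rest of chromosome 18. A fold of 20 in both lists was reached by 4 regions (18.2%), against 21.5% in the rest. They lay at Pcdha1, Pcdhac2, Pcdhb17 and Pcdhgb7. With peaks under 10-fold left out, the density ratio to the rest of the chromosome was 1.64 for Pcdha, 0.236 for Pcdhb and 0.672 for Pcdhg. These ratios rest on 7, 1 and 2 regions, where the density of the rest corresponds to 4.27, 4.24 and 2.98. No test of these differences was made. None of the 22 regions was built from the 10000 strongest peaks of both lists, which formed 218 shared regions in the rest of the chromosome, a density that corresponds to 1.74 regions over the length of the clusters. The highest fold in a cluster was 30.9 in replicate 1 and 43.5 in replicate 2, against 117 and 120 in the rest. These are maxima of 37 and 39 peaks against 4969 and 5786. A maximum rises with the number of peaks, so they are not comparable.

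**Figure D3:**
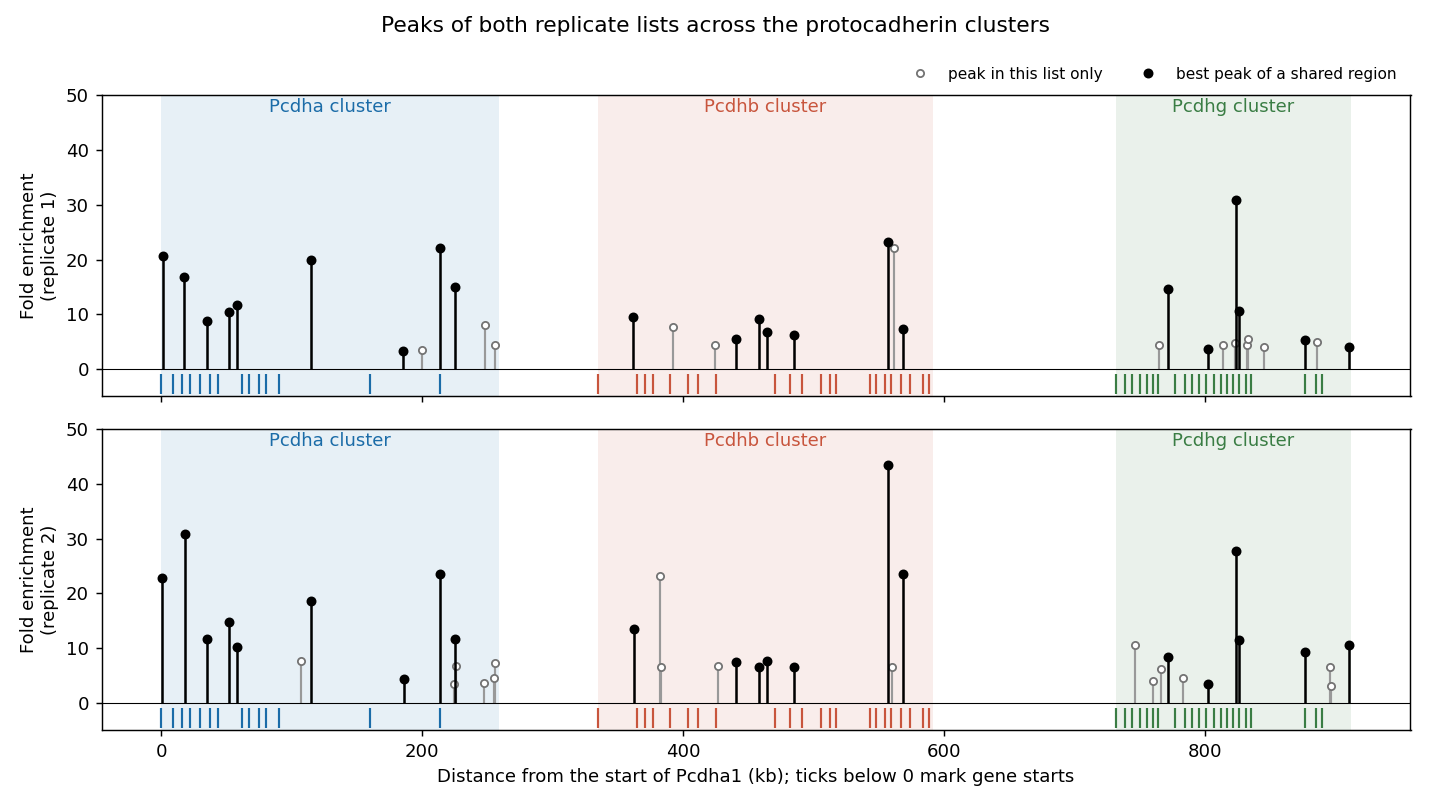
Fold enrichment of peaks (y axis; replicate 1 above, replicate 2 below) along the 3 clusters, by distance in kb from the start of Pcdha1. Filled points are the best peaks of shared regions, open points are peaks of that list alone, shaded bands are the clusters and ticks are gene starts. Among shared regions the tallest peak stands at Pcdhgb7 in replicate 1 (30.9) and at Pcdhb17 in replicate 2 (43.5), and a stretch without peaks covers the starts of Pcdhb11 to Pcdhb17.

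Among the Pcdha genes, which encode the alpha protocadherins, 7 of 14 segments held a shared region. Pcdha1, the first gene of the cluster, had a region (36931020 to 36931991) of 20.6-fold and 22.9-fold, whose midpoint lay 1220 bp after the gene start. Pcdha3 had a region (36947660 to 36948395) with folds of 16.9 and 30.9, centred 1939 bp after the start. Both lay at the start of their own segment rather than in the stretch before the next gene.

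Pcdha5 and Pcdha7 had regions farther from their starts. That of Pcdha5 had folds of 8.81 and 11.7 and was centred 1869 bp before the start of Pcdha6. Pcdha7, with a segment of 18656 bp, held 2 regions, of 10.4-fold and 14.7-fold and of 11.7-fold and 10.2-fold. The annotated pseudogene Gm36858 lies in that segment and overlaps both. The region in the segment of Pcdha12 had folds of 19.8 and 18.5, but its midpoint lay 25104 bp after the gene start, in the 69906 bp that separate Pcdha12 from Pcdhac1. Pcdha2, Pcdha4, Pcdha6, Pcdha8, Pcdha9, Pcdha10 and Pcdha11 had no peak of either list in their segments.

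The C-type genes of this cluster differed from each other. Pcdhac2, the last gene, had its start inside a shared region (37143320 to 37144332). The folds were 22.0 and 23.6, with summits 116 and 102 bp before the annotated start. It took place 656 of the 3112 shared regions on chromosome 18, ordered by the mean percentile of −log10 q, the highest place in Pcdha. A further region of Pcdhac2 had folds of 15.1 and 11.7 and was centred 11753 bp after the start. In the segment of Pcdhac1 lay a shared region of 3.25-fold and 4.32-fold, 25676 bp from the start and at place 3093, and a peak of replicate 1 alone (3.47-fold). The last 45.2 kb of the cluster, from the start of Pcdhac2, hold the constant exons used by all Pcdha genes. There replicate 1 had 4 peaks and replicate 2 had 7, and no shared region other than the 2 just named. That was 88.5 and 155 peaks per Mb, 1.5 and 2.3 times the rest of chromosome 18, while ratios for the whole cluster lay below 1. Of these peaks 50% and 28.6% overlapped a peak of the other list, against 67.2% and 57.0% in the rest. Those without overlap all lay near a peak of the other list, at 119 to 238 bp in replicate 1 and 119 to 673 bp in replicate 2. Some peaks of replicate 2 also lay close together, as between 37154765 and 37156059, on both sides of the second region. The low overlap here is thus not an absence of nearby peaks. Shared regions in this stretch lay at 1.24 times the density of the rest but covered 0.73 times its share of bases. The higher peak counts are thus not matched by more bases in shared regions. The counts are small and no test was made.

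Among the Pcdhb genes 5 of 22 segments held a shared region. Pcdhb17 had the strongest region of the 58 genes by the same order (37486153 to 37487331, place 414), which reached 23.1-fold and 43.5-fold. It lay inside the gene, centred 1721 bp after the start. Replicate 1 had a pair of peaks there and replicate 2 a single wider one. Pcdhb19 had a region centred 1722 bp after its start, with folds of 7.35 and 23.5, the largest relative difference between the lists among the 22 regions. Between these genes, Pcdhb18 held 1 peak of each list, of 22.0-fold and 6.49-fold, that did not overlap and lay 305 bp apart.

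The other 5 regions of the Pcdhb cluster lay between genes. In the segment of Pcdhb1, which opens the cluster, a region of 9.55-fold and 13.6-fold lay 2727 bp before the start of Pcdhb2. The long segment of Pcdhb8 (45584 bp) held 3 regions, with folds from 5.51 to 9.18 in replicate 1 and from 6.49 to 7.72 in replicate 2. Pcdhb10 had a region of 6.24-fold and 6.49-fold beyond its end. Thus 2 regions fell in the 75.6 kb inside Pcdhb genes (26.4 per Mb) and 5 in the 181 kb between them (27.7 per Mb). Peaks of 1 list alone lay at Pcdhb4 (23.2-fold in replicate 2), Pcdhb5 (7.71-fold in replicate 1) and, in the segment of Pcdhb7, just before Pcdhb8 (4.31-fold in replicate 1).

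The segments of 13 Pcdhb genes held no peak of either list. They were Pcdhb2, Pcdhb3, Pcdhb6, Pcdhb9, Pcdhb11 to Pcdhb16, Pcdhb20, Pcdhb21 and Pcdhb22, the last gene. Pcdhb11 to Pcdhb16 lie whole within 1 stretch of 70.5 kb without a peak (37415639 to 37486152), which ends inside Pcdhb17. On chromosome 18 there were 7253 stretches between peaks of the 2 lists together, with a median of 7.02 kb, and 46 of them (0.634%) were at least as long. In the rest of the chromosome 45 such stretches made up 4.45% of the bases. Pcdha had a stretch of 70.1 kb that covers the start of Pcdhac1 and another of 48.7 kb with the starts of Pcdha8 to Pcdha12. In Pcdhg the longest was 31.1 kb and held no gene start. These stretches were picked out after the lists were seen.

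Among the Pcdhg genes 6 of 22 segments held a shared region: 3 of 12 of the A type, 2 of 7 of the B type and 1 of 3 of the C type. Pcdhgb7, a B-type gene, had the strongest (37752945 to 37754194, place 432), which reached 30.9-fold and 27.8-fold. It was centred 1950 bp after the gene start, and a weaker peak of replicate 1 (4.77-fold) lay 6 bp before it without overlap. At Pcdhga11, which follows it, a region of 10.7-fold and 11.4-fold began 100 bp after its start. Pcdhga5 had a region of 14.7-fold and 8.34-fold, 7316 bp from its start and nearer to Pcdhga6. Pcdhgb5 had the weakest of the 22 regions, with folds of 3.67 and 3.40 and place 3109.

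At the C-type end of the Pcdhg cluster the folds were low. The start of Pcdhgc3 lay inside a shared region of 5.37-fold and 9.27-fold (37806124 to 37806436), whose midpoint falls just before the start and so in the segment of Pcdhga12. Its summits lay 71 and 105 bp before the annotated start, a placement like that at Pcdhac2 with lower folds. Pcdhgc4 had 1 peak of replicate 1 (5.01-fold) and no shared region. Pcdhgc5 had a region of 4.10-fold and 10.5-fold, 20945 bp after its start, in the part of the cluster with the constant exons. Its segment also held 2 peaks of replicate 2 alone (6.49-fold and 3.09-fold). Peak density there was 0.78 times that of the rest of chromosome 18 in replicate 1 and 2.02 times in replicate 2, from 1 and 3 peaks.

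Other Pcdhg genes had peaks of a single list or none. Peaks of 1 list alone lay in the segments of Pcdhga3 (10.5-fold, replicate 2), Pcdhgb2 (4.02-fold, replicate 2), Pcdhga6 (4.63-fold, replicate 2), Pcdhgb6 (4.41-fold, replicate 1) and Pcdhgb8 (4.41-fold and 5.51-fold, replicate 1). That of Pcdhgb2 began 27 bp after the gene start, and 1 of those at Pcdhgb8 overlapped the start. No peak of either list was placed in the segments of Pcdhga1, the first gene, or of Pcdhga2, Pcdhgb1, Pcdhga4, Pcdhga7, Pcdhgb4, Pcdhga8, Pcdhga9 and Pcdhga10. None was placed by midpoint in that of Pcdhgc3 either, although the region over its start reaches into it.

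In all, 18 of 58 segments (31.0%) held a shared region, 10 held peaks but no shared region and 30, Pcdhgc3 among them, held no peak by midpoint. Segments without a peak were not counted in the rest of chromosome 18. Stretches between peaks had a median of 7.02 kb on the chromosome, about the median length of these segments. That median does not give a share of empty segments, so the 30 have no comparison. Of the segments cut in the same way between other protein-coding genes of chromosome 18, 84.1% held a shared region, but their median length was 75971 bp, against 7024 bp here. In segments within the length range of the protocadherin ones the share was 68.8%, with a median of 32537 bp, so that these shares are not comparable with each other.

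A shared region lay within 5 kb of the start of 18 of the 58 genes (31.0%), against 39.2% of 451 other protein-coding genes of chromosome 18, for which the lower-coordinate end was used because strand is not in the table. The counts were 6 of 14 for Pcdha, 7 of 22 for Pcdhb and 5 of 22 for Pcdhg. Starts less than 5 kb apart were joined into 47 loci, of which 16 had a region. Within 1 kb it was 4 genes (6.90%, against 14.9% of the others), namely Pcdha1, Pcdhac2, Pcdhga11 and Pcdhgc3. Within 2 kb it was 10 (17.2%, against 21.3%), and within 10 kb it was 35 (60.3%, against 57.4%). No test of these differences was made, and neighbouring starts can share a region.

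Within the clusters, regions were more often found just after a start than just before it. The 3 kb after the starts make up 25.0% of the clusters and held 8 of 22 regions (46.0 per Mb). The 3 kb before the starts make up 20.6% and held 3 (21.0 per Mb), and the remainder held 11 (29.1 per Mb). After and before the starts, densities were 71.4 and 26.4 per Mb in Pcdha, 30.3 and 17.4 in Pcdhb and 45.4 and 21.0 in Pcdhg. Placed by midpoint, each cluster had 2 or 3 regions after starts against 1 before. In Pcdhb the density after starts was close to that in the remainder (30.1 per Mb). Peaks of replicate 1 fell after a start in 18 of 37 cases (48.6%) and those of replicate 2 in 14 of 39 (35.9%). By midpoint, all 4 regions of at least 20-fold in both lists and 6 of the 10 of at least 10-fold in both lay there, with 2 of the 12 others. The region over the start of Pcdhac2 is among them by its midpoint, 148 bp after the start, while both its summits lie before it. Placed by both summits, 7 regions lay after a start, with 3 of the 4, 5 of the 10 and 2 of the 12. By either summit, 4 lay in the 3 kb before a start. In Pcdha the summits lay after the starts of Pcdha1 and Pcdha3 and before those of Pcdha6 and Pcdhac2. The difference between after and before was thus smaller by summit, and absent in Pcdha. Around the lower-coordinate ends of other genes on the chromosome, which mix starts and ends, the densities were 52.0 per Mb after and 44.9 per Mb before. The 3 kb zone and the folds were chosen after the lists were seen, and no test was made.

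**Figure D4:**
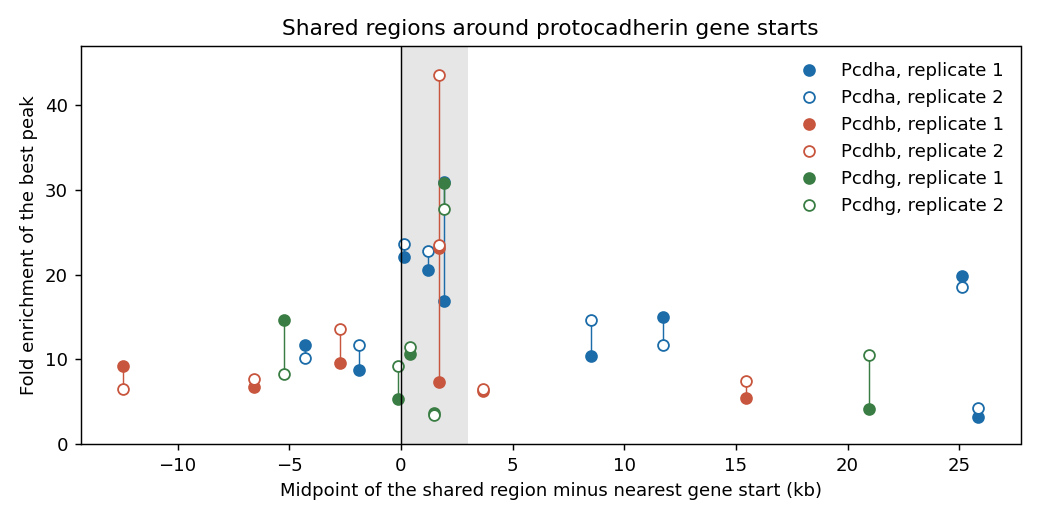
Fold enrichment of the best peak of each of the 22 shared regions (y axis; filled for replicate 1, open for replicate 2, joined by a line) against the distance in kb from the nearest gene start to the midpoint of the region. The grey band marks the 3 kb after a start. It holds 8 regions by midpoint, among them the 4 with folds of at least 20 in both lists, of which that of Pcdhac2 overlaps the start and has its summits before it.

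The summits of the best peaks lay a median of 41 bp apart over the 22 regions, against 74 bp in the rest of chromosome 18, where regions were likewise chosen by overlap of the lists. The medians were 48 bp in Pcdha, 112 bp in Pcdhb and 31.5 bp in Pcdhg. The fold was higher in replicate 2 for 15 of 22 regions: 6 of 9 in Pcdha, 6 of 7 in Pcdhb and 3 of 6 in Pcdhg. That was 68.2%, against 53.0% of the regions in the rest of chromosome 18, with no test made. Of the 13 unpartnered peaks of replicate 1 in the clusters, 5 had a peak of replicate 2 no more than 1 kb away. Of the 16 of replicate 2, 7 had one of replicate 1. The same shares were not taken in the rest of chromosome 18, so these counts have no comparison. The strongest unpartnered peaks were those at Pcdhb18 in replicate 1 (22.0-fold) and Pcdhb4 in replicate 2 (23.2-fold).

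**Figure D5:**
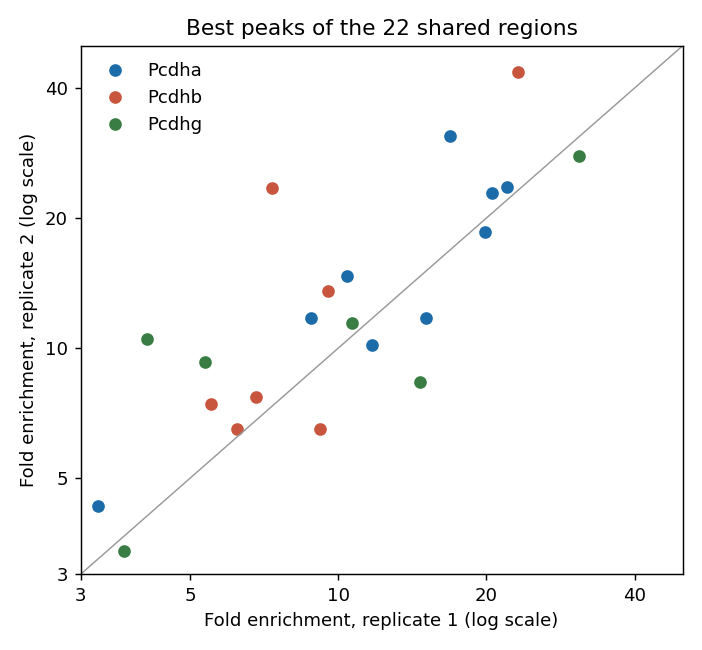
Fold enrichment of the best peak of each shared region in replicate 2 (y axis) against replicate 1 (x axis), both on log scales, coloured by cluster, with the line of equal folds. Of the 22 points, 15 lie above the line (68.2%, against 53.0% of regions in the rest of chromosome 18). The point farthest above it is Pcdhb19, with folds of 7.35 and 23.5.

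Other genes at the locus gave a frame for these values. RefSeq also lists 3 read-through genes, Gm37013, Gm38666 and Gm38667, which start at Pcdha4, Pcdha6 and Pcdha7, run to the end of Pcdhg and overlap 25 or 26 shared regions each. They are not members by symbol and add no region to the counts of segments. The gap between Pcdha and Pcdhb (76.1 kb) held 1 shared region and that between Pcdhb and Pcdhg (140 kb) held 5. Neither Slc25a2, a mitochondrial ornithine carrier gene, nor Taf7, which encodes a subunit of the transcription factor TFIID, overlapped any. The pseudogene Gm8242 overlapped one of 25.7-fold and 22.2-fold. The strongest region next to the clusters began 4641 bp past the end of Pcdhg, inside Diaph1, the gene of an actin-nucleating formin, with folds of 70.9 and 41.1 and place 99. With 10 kb added at each end of a cluster, the Pcdhg density ratio was 1.26, against 0.94 without.

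Protocadherin genes outside the clusters were counted by either gene end, since strand is not given. A shared region lay no more than 5 kb from an end of 3 of 12 such genes (25.0%), against 57.2% of all protein-coding genes. They were Pcdh15, a component of the tip links of hair cells (15.7-fold and 25.4-fold), Pcdh8 (4.41-fold and 14.8-fold) and Pcdh19 (9.18-fold and 6.79-fold). Among those without a region near an end, Pcdh9 held 14 inside the gene, Pcdh7 and Pcdh11x 9 each and Pcdh17 1. Pcdh1, Pcdh10, Pcdh12, Pcdh18 and Pcdh20 held none. Counted by either gene end, 36 of the 58 clustered genes had a region, against 58.1% of the other protein-coding genes of chromosome 18. The shared ends of Pcdha and of Pcdhg make 1 region count for many genes. Of the genes that control clustered protocadherins or act with their proteins, 16 of the 17 listed were found by symbol and 10 had a region (62.5%, near the 57.2% of all protein-coding genes). They included Ctcf, which encodes the DNA-binding protein that shapes promoter choice in the clusters (27.2-fold and 11.4-fold), and the genes of the cohesin release factor Wapl (44.1-fold and 39.8-fold) and loading factor Nipbl (12.1-fold and 16.4-fold). Of the cohesin subunit genes listed, Smc3 had a region (5.88-fold and 9.69-fold), and Rad21, Smc1a, Stag1 and Stag2 had none within 5 kb of an end. Inside the gene, Stag1 held 13, Smc1a 2, Rad21 1 and Stag2 none. The focal adhesion kinase gene Ptk2 (56.2-fold and 61.5-fold) and the actin regulator gene Wasf1 (72.0-fold and 44.8-fold) had the highest folds. Regions near these genes concern captured DNA and not their expression.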

How the data were processed

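ChIRP-seq DNA of LncMyoD and input was sequenced in 6 samples. Per the submitters' processing notes, Bowtie2 2.3.2, Picard 2.9.2, MACS2 2.1.1 and mm10 were used; their order, thresholds, the libraries behind each list and the treatment of reads matching several paralogs are not stated there. The authors deposited 1 peak list per replicate (157214 and 179630 peaks), with a score per peak, a fold ratio at the summit, −log10 q values, and a summit position (other unit) in bp; −log10 q was at least 1.345 and 1.324. Genes came from a RefSeq table of the same assembly (GRCm38.p6), without strand, exons or sequence for these genes. Peaks were joined into shared regions in Python 3.11.15 with numpy 2.4.6, pandas 2.3.3 and scipy 1.17.1, and plotted with matplotlib 3.10.9; the code was tested on simulated data. The rest of chromosome 18 runs from the first to the last peak or gene, without the clusters. Members, lists and named genes were chosen with earlier results of these data known. Named in full were the C-type genes, the first and last gene of each cluster and the 3 segments per cluster with the best region; other members were named by group. No test was made, since each replicate is 1 list. Alternatives were other thresholds on q and fold, the strongest peaks, stricter overlap, each list alone, and other spans, windows and comparison regions.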

Additional observations from a re-analysis of the deposited data

How the results depend on the processing

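No paired analysis was possible because each replicate is 1 pooled peak list with no contrast between groups. The density ratio of the 3 clusters to the rest of chromosome 18 (0.89) lay below 1 under all 14 alternatives, as did that of Pcdhb (0.77), while those of Pcdha (0.98) and Pcdhg (0.94) each rose above 1 under 3 of 14. The SD between the single lists is no error of the shared-region ratio, and for Pcdha 13 of 14 alternatives moved the ratio by more than that SD. Beyond that SD, the ratio moved as follows. For Pcdha it was 0.950 at −log10 q of at least 5, 1.04 and 1.64 at folds of at least 5 and 10, 0.962 with reciprocal overlap of 50%, 1.24 with summits within 200 bp, 0.998 without the top 1% of folds, 0.895 by covered bases, 0.908 with 10 kb added at the ends, 0.935 against other genes of the chromosome and 0.927 against all autosomes. For Pcdhb it was 0.921 and 0.236 at folds of at least 5 and 10 and 0.648 by covered bases. For Pcdhg it was 0.682 at −log10 q of at least 5, 0.749 and 0.672 at folds of at least 5 and 10, 0.615 by covered bases and 1.26 with 10 kb added. For the clusters together it was 0.976 with summits within 200 bp, 0.731 by covered bases and 0.968 with 10 kb added. Among the 10000 strongest peaks every ratio and count was 0. With 1 list alone the ratios were 0.871 to 0.879 for Pcdha, 0.644 to 0.750 for Pcdhb, 1.08 to 1.26 for Pcdhg and 0.843 to 0.931 together. Gene starts near a region (18) were 9 at folds of at least 10, 10 with reciprocal overlap, 4, 10 and 35 with windows of 1, 2 and 10 kb, 36 with either gene end and 26 to 27 with 1 list alone. Segments with a region (18) were 8 at folds of at least 10 and 23 to 24 with 1 list alone. Apart from fewer peaks at higher thresholds and more starts in wider windows, which follow from their construction, the cause was not tested. The peak lists hold no read depth, so no limit from depth can be given.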
